A study of Mus musculus with 36 samples.

Results

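The Bcl2 family of survival and death genes was followed in the mouse pre-B cell line B3 after nuclear entry of Ikaros. The members were the rows of the deposited mRNA-seq table whose symbol was one of 10 listed genes, and 9 of the 10 were found among 12762 genes. They were the survival genes Bcl2, Bcl2l1 and Mcl1, the effectors Bax and Bak1, and the BH3-only genes Bcl2l11, Bbc3, Bid and Bad. The remaining listed gene, the BH3-only gene Pmaip1, is not analysed here. The Ikaros line carried an MSCV retrovirus for HA-Ikaros fused to the ERt2 hormone-binding domain, followed by IRES-GFP, and the control line carried the same vector with ERt2 alone. Both were pools of transduced B3 cells sorted on GFP rather than clones, and 3 libraries were made from each line at 0, 2, 6, 12, 18 and 24 h. Thus 36 libraries fell into 12 groups. GEO's labels list 0.5 uM 4-OHT, the tamoxifen derivative that moves ERt2 fusions into the nucleus, for all 36, whereas the methods of the study state that the 0 h cells received none and were collected on separate occasions.

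In the mitochondrial pathway of apoptosis, survival proteins of the Bcl2 family bind and hold back the effectors Bax and Bak1, which otherwise open the outer mitochondrial membrane and release cytochrome c. BH3-only proteins act as sensors of stress: they occupy the groove of the survival proteins, and some of them also engage the effectors directly. Developing B cells depend on this balance, since survival signals through cytokine receptors and the pre-B cell receptor hold it on the side of life, and Bim, the product of Bcl2l11, is a main killer of lymphocytes that lose such signals.

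The values were log2 expression after correction for GC content, gene length and library preparation, so that a difference of 1 is a 2-fold difference. Library medians lay between 11.70 and 11.73, the lowest correlation between libraries of a group was 0.962, and no pair of libraries shared more than 0.384% of identical values. Ikzf1, the gene that encodes Ikaros, lay between 13.95 and 14.85 in the control libraries and between 19.63 and 20.93 in the Ikaros libraries, which did not overlap. All 10 of 10 pre-B markers were found, with summed levels of 19.30 to 19.71 in control and 18.99 to 19.85 in Ikaros libraries, whereas 0 of 5 T cell and 0 of 4 stromal markers had a row. Of 6 myeloid markers, Lyz2 and Itgam were found, with summed levels of 6.01 to 8.74 in control and 7.82 to 10.03 in Ikaros libraries. Of 4 erythroid markers, Hbb-b1 was found, at 4.37 to 7.51 in control and 3.79 to 6.62 in Ikaros libraries. These markers differed between the lines already at 0 h, where Lyz2 was 2.94 higher in the Ikaros line and Hbb-b1 lower (difference -2.02). Itgam differed by -0.78 at 0 h, with overlapping libraries. At 24 h Itgam was 4.24 higher and Lyz2 lower (difference -2.94) in the Ikaros line, and the part of these markers in the results was not tested. In bulk RNA of this kind, fewer cells of a type and less RNA per cell cannot be told apart.

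The family did not move as a block. Against control, Bcl2l1 and Bbc3 were lowest at 2 h, although within the Ikaros line the mean of Bbc3 was lowest at 6 h. The widest differences at 24 h were a 4.59-fold lower Bcl2 and a 2.93-fold higher Bcl2l11. Bak1 and Bad passed the test at no time. Called differences (limma, adjusted p under 0.05 over all genes) numbered 1 of 9 at 0 h, 2 of 9 at 2 h, and 4 of 9 at 6 h. At 12 h and 18 h 4 of 9 passed, and at 24 h 5 of 9. Over all genes tested, the called share rose along the course, from 8.33% at 0 h and 19.1% at 2 h through 37.3% at 6 h and 45.8% at 12 h. It reached 58.2% at the 18 h time point and 62.9% at the last. The family share of called genes was thus near that of the whole table, and what follows concerns which members moved and when. The median difference over the 9 genes was -0.06 at 24 h against -0.01 over all genes. The 3 libraries of 1 line lay wholly above or below those of the other for 7 of the 9 genes at 24 h, a pattern found in 71% of all genes.

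**Figure D1:**
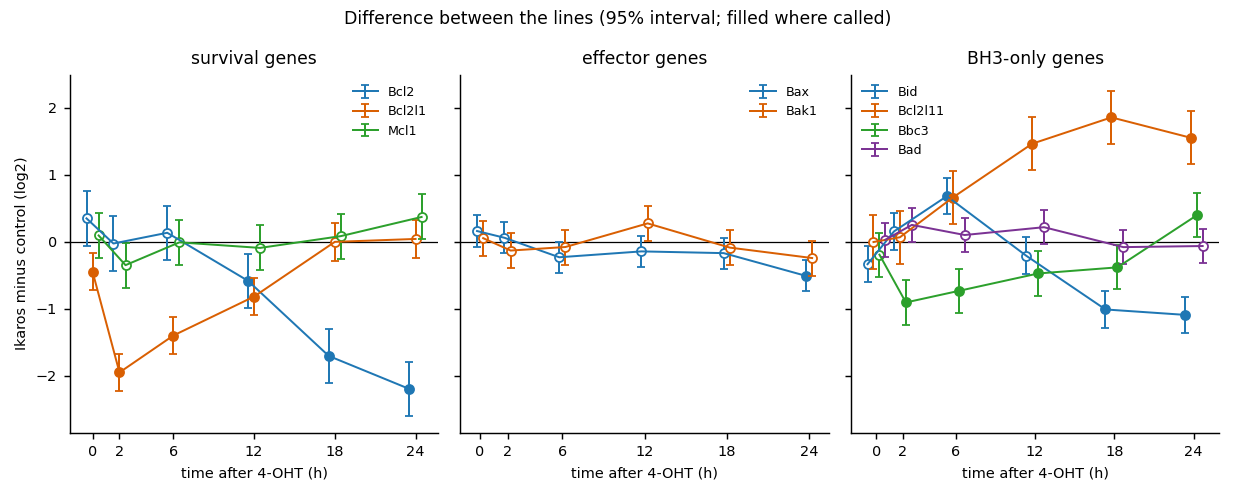
The difference between the Ikaros and control lines is plotted in log2 units against time in h, with survival, effector and BH3-only genes in separate panels; bars are 95% intervals from the limma fit (n = 3 per group) and filled points passed the adjusted threshold. Bcl2l1 and Bbc3 are lowest at 2 h and come back, Bcl2 and Bid fall late, and Bcl2l11 is above control from 6 h.

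Bcl2, the founding survival gene of the family, lies on the reverse strand at chr1:106538178-106714274 (GENCODE M21, GRCm38). Its RefSeq promoter window is shown because the gene had the widest 24 h difference of the 9. The 250 bases before the annotated start, chr1:106714291-106714540 on the reverse strand of GRCm38.p6, contain 74.8% G and C. Neither this stretch nor the 50 bases after the start holds the Ikaros core TGGGAA, the FOXO site GTAAACA or the E-box CACGTG on either strand, so that no letter is in capitals.
Bcl2: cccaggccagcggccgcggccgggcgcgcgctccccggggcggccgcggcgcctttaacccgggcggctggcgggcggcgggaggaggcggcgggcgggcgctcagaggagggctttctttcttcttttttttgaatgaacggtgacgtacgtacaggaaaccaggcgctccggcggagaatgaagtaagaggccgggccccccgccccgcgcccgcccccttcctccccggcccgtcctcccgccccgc

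Bcl2 was not called before 12 h. At 0 h its Ikaros libraries were at 10.93, 10.95 and 11.08, above the control libraries at 10.49, 10.67 and 10.75 (difference 0.35 ± 0.20 SE, adjusted p = 0.363), and at 2 h the groups overlapped. At 6 h the Ikaros libraries stood at 10.75, 10.85 and 11.62 and the control libraries at 10.87, 10.92 and 11.01, and the groups overlapped. At 12 h the Ikaros libraries were at 9.99, 10.33 and 10.68, all below the control libraries at 10.83, 10.88 and 11.04, a difference of -0.58 ± 0.20 (SE, n = 3, adjusted p = 0.0176). This 12 h call was lost without replicate 1 (adjusted p = 0.201) or replicate 2 (0.148) and in a fit restricted to the 12 h libraries (0.0665). The fall continued. At 18 h the Ikaros libraries reached 9.13, 9.29 and 9.34 against 10.71, 10.77 and 11.39 (difference -1.70, adjusted p = 3.67e-08). At 24 h they reached 8.70, 8.71 and 9.07 against 10.87, 10.88 and 11.31 (difference -2.20 ± 0.20 SE, adjusted p = 2.62e-10). The late groups were thus far apart, and within the 3 replicate pairs the 24 h difference ranged from -2.61 to -1.81. The control line itself stayed between group means of 10.64 and 11.02. Exons of Bcl2 share 558 bases with D630008O14Rik on the opposite strand, a gene without values here, and its part in the Bcl2 values was not tested.

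Bcl2l1, which encodes the survival protein Bcl-xL, lies on the reverse strand at chr2:152780668-152831728 and followed another course. At 0 h the Ikaros libraries were at 13.86, 13.89 and 13.98 and the control libraries at 14.31, 14.38 and 14.38 (difference -0.45 ± 0.14 SE, adjusted p = 0.0375). The groups did not overlap, but this call was lost when replicate 1, 2 or 3 was left out (adjusted p from 0.0808 to 0.596). At 2 h the Ikaros libraries had dropped to 12.45, 12.47 and 12.55 while the control libraries were at 14.32, 14.47 and 14.52, a 3.86-fold lower level (difference -1.95 ± 0.14 SE, adjusted p = 5.37e-11). The 2 h spread within each line was small beside this gap. The Ikaros libraries then climbed to 12.78, 12.94 and 13.30 at 6 h (difference -1.40) and 13.64, 14.06 and 14.08 at 12 h (difference -0.82, adjusted p = 1.66e-05). At 24 h they were at 14.73, 14.90 and 14.91 and overlapped the control libraries at 14.58, 14.90 and 14.93 (difference 0.04, 95% interval -0.24 to 0.32). The difference between the lines at 18 h was -0.00 (95% interval -0.28 to 0.28). Bcl2l1 and Bcl2 were therefore low in the Ikaros line at different times, with both below control only at 12 h among the called times. The deposited values do not separate the long and short Bcl2l1 isoforms, which have opposite roles.

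Mcl1, a survival gene whose protein is short-lived, lies on the forward strand at chr3:95658788-95663176. Its control libraries at 24 h were at 13.76, 14.04 and 14.17 and its Ikaros libraries at 14.28, 14.36 and 14.44 (difference 0.37 ± 0.16 SE, adjusted p = 0.0509). The groups did not overlap, and with the batch as a replicate block the adjusted p was 0.0118. It was 0.0498 with only the 24 h groups in the fit, 0.0429 with the lowest-expressed genes filtered out and 0.0417 with trend and robust variance moderation. Quantile normalization and median centring did not bring the call. Leaving out each replicate in turn gave differences from 0.25 to 0.44 and adjusted p from 0.0828 to 0.182, so the call was absent there too. At 2 h the Ikaros libraries were at 13.30, 13.59 and 13.91 against 13.52, 14.04 and 14.27 (difference -0.35, adjusted p = 0.147, and 0.0454 with the replicate block). The groups overlapped at 2 h as they did at all other times but the last. From 2 h to 24 h Mcl1 rose within the Ikaros line by 0.76 (adjusted p = 0.000247).

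**Figure D2:**
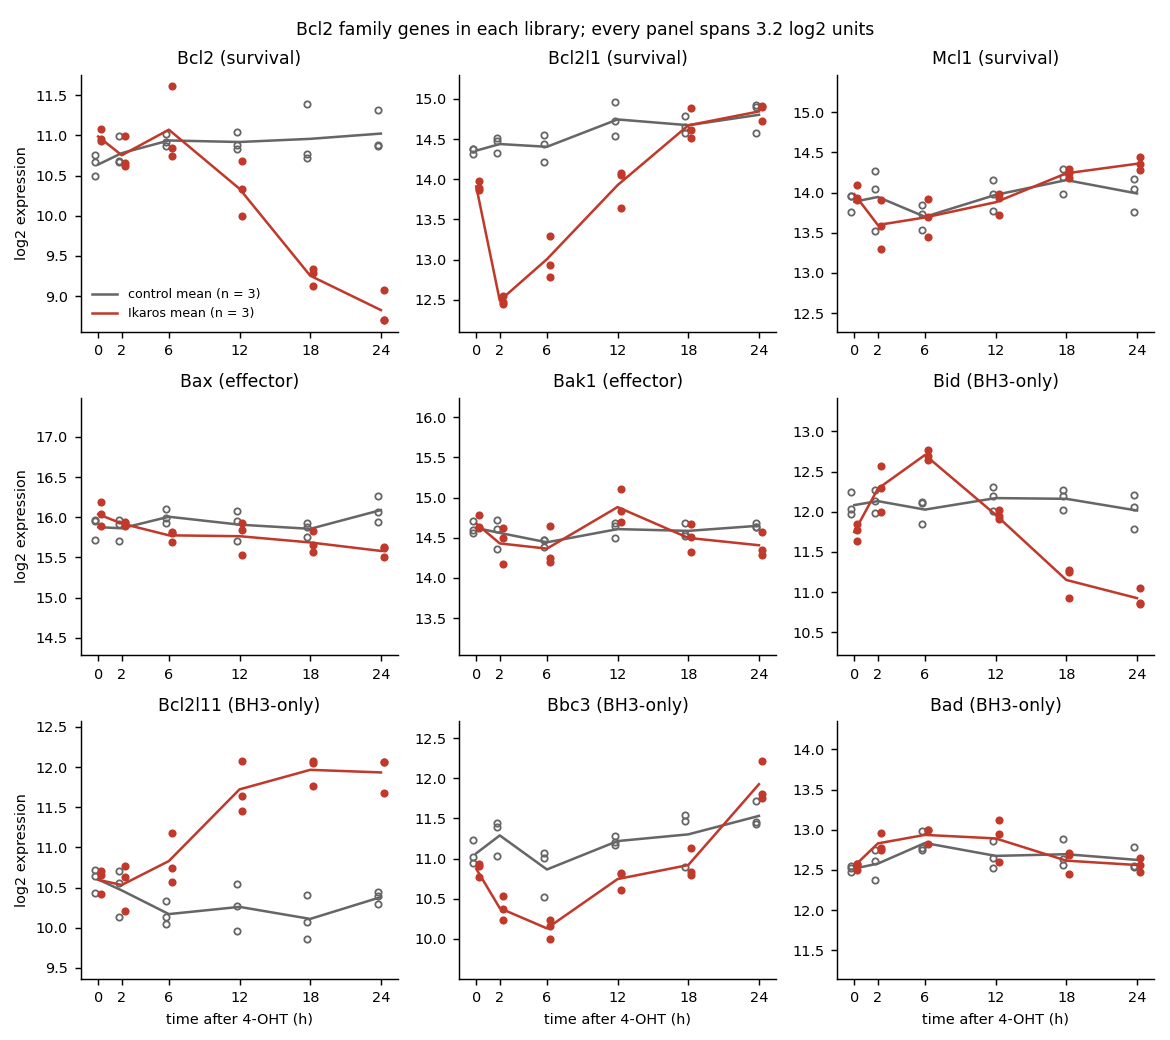
Log2 expression of the 9 family genes is plotted against time in h, one panel per gene, with open grey circles for control libraries, filled red circles for Ikaros libraries and lines through group means (n = 3); every panel spans 3.2 log2 units. The Ikaros libraries of Bcl2 end at 8.70 to 9.07, and those of Bcl2l1 drop to a trough of 12.45 to 12.55 at 2 h. Bad and Bak1 were called at no time, though the Bak1 libraries of the lines did not overlap at 12 h and 24 h.

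Of the effectors, Bax was called at 24 h and Bak1 at no time. Bax (reverse strand, chr7:45461697-45466898), whose protein moves to mitochondria on activation, was at 15.94, 16.06 and 16.27 in the control libraries at 24 h and at 15.50, 15.61 and 15.63 in the Ikaros libraries. The groups did not overlap, and the difference of -0.51 ± 0.11 (SE, adjusted p = 0.000332) was a 1.42-fold lower level. At 6 h Bax differed by -0.23 (adjusted p = 0.111, and 0.0453 with the replicate block), with no overlap. Bax was not called at 0, 2, 12 or 18 h. Exons of Bax share 192 bases with Gm45808 on the same strand, a gene without values here, and its part in the Bax values was not tested.

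Bak1 (reverse strand, chr17:27019810-27029009), the effector that resides in the outer membrane, was not called between the lines at any time. Its Ikaros libraries were at 14.70, 14.84 and 15.10 at 12 h, above the control libraries at 14.50, 14.64 and 14.68 (difference 0.27 ± 0.13 SE, adjusted p = 0.0804). At 24 h they were at 14.29, 14.35 and 14.58, below the control libraries at 14.63, 14.63 and 14.68 (difference -0.24, 95% interval -0.50 to 0.02). Within the Ikaros line Bak1 was 0.52 higher at 12 h than at 6 h (adjusted p = 0.00525, and 0.276 without replicate 2), and from 12 h to 18 h it changed by -0.38 (adjusted p = 0.0275). The latter call was lost without replicate 2 (0.371) or replicate 3 (0.117). Exons of Bak1 share 437 bases with Ggnbp1 on the opposite strand, and Ggnbp1 was 2.43 higher in the Ikaros line at 12 h (adjusted p = 1.12e-05). Whether the counting used strand is not given in the sources used here, and the part of Ggnbp1 in the Bak1 values was not tested.

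Of the 4 BH3-only members, Bcl2l11 differed more between the lines at 24 h than Bid, Bbc3 or Bad. It encodes Bim, which binds all main survival proteins, and lies on the forward strand at chr2:128126038-128162547. Its promoter is shown because Bcl2l11 and Bbc3 are known targets of FOXO factors and each has a window with the FOXO site, printed in capitals. Both genes have more than 1 RefSeq window, and the window printed was picked because it holds the site. In Bcl2l11 the site GTAAACA begins 227 bases before the start, in the window chr2:128125788-128126037 on the forward strand of GRCm38.p6.
Bcl2l11: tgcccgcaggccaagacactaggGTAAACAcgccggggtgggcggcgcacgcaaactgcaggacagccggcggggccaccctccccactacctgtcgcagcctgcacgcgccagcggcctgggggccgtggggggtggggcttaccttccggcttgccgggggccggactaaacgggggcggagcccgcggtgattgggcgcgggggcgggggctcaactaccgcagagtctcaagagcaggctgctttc

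GTAAACA or its reverse complement TGTTTAC was present in 3.65% of 32851 RefSeq promoter windows of 300 bases (250 before and 50 after the start), and such a match is a description and not a bound site. That share is per window and not per gene. The other windows of Bcl2l11 and Bbc3 hold no FOXO site. Among the members, the Ikaros core lay in windows of Bax and Bad (25.6% of all windows). The E-box lay in windows of Bax and Bbc3 (7.15% of all windows). At 2 h Bcl2l11 was at 10.21, 10.63 and 10.76 in Ikaros libraries and at 10.13, 10.56 and 10.71 in control libraries, which overlapped. At 6 h the Ikaros libraries were at 10.57, 10.74 and 11.18, all above the control libraries at 10.05, 10.13 and 10.33 (difference 0.66 ± 0.19 SE, adjusted p = 0.00863). This 6 h call was lost without replicate 1 (adjusted p = 0.128) or replicate 2 (0.0761) and with only the 6 h groups in the fit (0.0708). At 12 h they were at 11.45, 11.63 and 12.08 against 9.96, 10.27 and 10.55 (difference 1.46, adjusted p = 5.99e-07). The groups then stayed apart. At 18 h the Ikaros libraries were at 11.76, 12.05 and 12.08 against 9.86, 10.07 and 10.40 (difference 1.86, 3.62-fold, adjusted p = 5.13e-09). At 24 h they were at 11.68, 12.06 and 12.06 against 10.30, 10.40 and 10.45 (difference 1.55 ± 0.19 SE, adjusted p = 8.99e-08). The change from 18 h to 24 h within the Ikaros line was -0.03 (adjusted p = 0.961).

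Bbc3, which encodes Puma, a BH3-only protein known as a p53 target, lies on the forward strand at chr7:16308393-16318205. The window shown, chr7:16310011-16310260 on the forward strand of GRCm38.p6, precedes one of its RefSeq starts and lies inside the GENCODE span of the gene. It holds TGTTTAC from 167 bases before that start.
Bbc3: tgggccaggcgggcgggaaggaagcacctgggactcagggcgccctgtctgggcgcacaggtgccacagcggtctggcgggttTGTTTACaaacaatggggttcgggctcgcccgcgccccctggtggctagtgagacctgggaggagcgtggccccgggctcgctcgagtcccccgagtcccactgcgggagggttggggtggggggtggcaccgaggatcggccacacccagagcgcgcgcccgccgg

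Bbc3 crossed from below to above the control line. At 2 h its Ikaros libraries were at 10.24, 10.37 and 10.54 and its control libraries at 11.03, 11.39 and 11.45 (difference -0.91 ± 0.16 SE, adjusted p = 0.000166). At 6 h the Ikaros libraries were at 10.00, 10.16 and 10.23 against 10.52, 11.00 and 11.07 (difference -0.73). The 2 lines did not overlap at either time. At 12 h Bbc3 was at 10.61, 10.80 and 10.82 in Ikaros and 11.16, 11.21 and 11.28 in control libraries (difference -0.47, adjusted p = 0.0176, and 0.234 without replicate 2). At 18 h the groups overlapped, with Ikaros libraries at 10.80, 10.83 and 11.13 and control libraries at 10.90, 11.46 and 11.54 (difference -0.38, adjusted p = 0.0438, and 0.0502 with the replicate block). The 18 h call was lost also without replicate 1 (0.0760) or replicate 2 (0.413), and with only the 18 h groups (0.164). At 24 h the Ikaros libraries were at 11.76, 11.81 and 12.21, all above the control libraries at 11.43, 11.45 and 11.72 (difference 0.39 ± 0.16 SE, adjusted p = 0.0350). The 24 h call was lost without replicate 1 (difference 0.21, adjusted p = 0.290), without replicate 2 (0.133) and with only the 24 h groups (0.0723). Within the Ikaros line Bbc3 rose by 1.01 between 18 h and 24 h (adjusted p = 0.000232, and 0.0793 without replicate 2), when 5.77% of all genes were called and no other member was.

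Bid, whose protein is cut by caspase-8 and links death receptors to mitochondria, lies on the reverse strand at chr6:120891930-120916853 and reversed direction over the course. At 6 h its Ikaros libraries were at 12.65, 12.70 and 12.78, all above the control libraries at 11.85, 12.11 and 12.12 (difference 0.68 ± 0.13 SE, adjusted p = 0.000211). At 12 h the Ikaros libraries were at 11.91, 11.95 and 12.03 and overlapped the control libraries at 12.01, 12.20 and 12.30 (difference -0.21, adjusted p = 0.207). At 18 h they were at 10.93, 11.25 and 11.28 against 12.02, 12.20 and 12.27, and at 24 h at 10.86, 10.86 and 11.05 against 11.78, 12.06 and 12.21. The late groups did not overlap, with differences of -1.01 at 18 h (adjusted p = 2.79e-07) and -1.09 at 24 h (adjusted p = 5.87e-08), the latter a 2.13-fold lower level. Bid shares 628 exonic bases with Bcl2l13 on the opposite strand, which passed the test at no time and differed by -0.11 at 24 h.

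Bad, a BH3-only gene whose protein is held inactive by phosphorylation, lies on the forward strand at chr19:6941861-6951899 and was called at no time. Its libraries ranged from 12.48 to 12.65 in the Ikaros and from 12.54 to 12.78 in the control line at 24 h (difference -0.06, 95% interval -0.32 to 0.19). Without replicate 3 its 12 h difference of 0.22 became 0.45 (adjusted p = 0.00276). Bad shares 524 exonic bases with Gpr137 on the opposite strand, which was 0.86 higher in the Ikaros line at 24 h (adjusted p = 2.03e-06).

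Because the lines already differed at 0 h, the change of the difference was also tested. An F test over the 5 changes from 0 h called 6 of the 9 genes, against 59.8% of all genes. It did not call Mcl1 (adjusted p = 0.135, and 0.0239 with the replicate block), Bak1 (0.155) or Bad (0.354). Bax was called by the F test (0.0117) but not when replicate 1, 2 or 3 was left out (adjusted p from 0.0854 to 0.178). Against 0 h, 1 of 9 differences had changed by 2 h (3.1% of all genes) and 2 of 9 by 6 h (15.9%). By 12 h 2 of 9 had changed (29.7%), by 18 h 3 of 9 (43%), and by 24 h 6 of 9 (48.4%). Relative to 2 h, which uses no 0 h library, 7 of 9 differences had changed by 24 h, against 47.3% of all genes. Bcl2l1, Bcl2l11, Bbc3 and Mcl1 moved up against control in that interval, by 1.99, 1.48, 1.30 and 0.72, and Bcl2, Bid and Bax moved down, with changes of -2.17, -1.24 and -0.57. Of these 7, Mcl1 was no longer called without replicate 2 (adjusted p = 0.146) or with only the groups compared (0.0751), and Bax without replicate 1 (0.0671).

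Within the Ikaros line the members moved in successive windows. From 0 h to 2 h 3 of 9 passed the test (19.2% of all genes), with Bcl2l1 at -1.42, Bbc3 at -0.49 and Bid at 0.54. From 2 h to 6 h 2 of 9 passed (11.2%), namely Bcl2l1 at 0.52 and Bid at 0.42. From 6 h to 12 h 6 of 9 passed (20.8%). Bcl2l1, Bcl2l11, Bbc3 and Bak1 rose in it by 0.92, 0.89, 0.61 and 0.52, and Bcl2 and Bid fell by 0.74 and 0.75. From 12 h to 18 h 4 of 9 passed (25.5%), of which Bcl2 at -1.08, Bid at -0.81 and Bak1 at -0.38 fell and Bcl2l1 rose by 0.74. The spread in this fit was pooled over 12 groups. With only the groups compared, 1 of 9 passed from 0 h to 2 h (Bcl2l1), 0 of 9 from 2 h to 6 h and 0 of 9 from 6 h to 12 h, where adjusted p ranged from 0.0674 for Bid to 0.237 for Bcl2. From 12 h to 18 h 3 of 9 then passed, with the Bak1 call lost (adjusted p = 0.139). The Bbc3 steps from 0 h to 2 h (adjusted p from 0.0984 to 0.217) and from 6 h to 12 h (0.0506 to 0.0749) and the Bid step from 2 h to 6 h (0.0984 to 0.253) were lost whichever replicate was left out. Without replicate 1 or replicate 2, the calls of Bid from 0 h to 2 h, Bcl2l1 from 2 h to 6 h and Bcl2 from 6 h to 12 h were lost too, with Bcl2 at 0.0795 and 0.108. Without replicate 3 Bcl2l11 from 6 h to 12 h was at 0.0508.

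Between 0 h and 24 h 7 of 9 members changed in the Ikaros line (60.6% of all genes). Mcl1 was among them with 0.38 (adjusted p = 0.0477), which was lost without replicate 1 (0.129) or replicate 2 (0.214). In the control line, limma called 0 of 9 from 0 h to 24 h, where 0.47% of all genes passed, and 2 of 9 had an unadjusted p under 0.05. These were Bcl2l1 and Bbc3, with changes of 0.45 and 0.47 (adjusted p = 0.166 and 0.232). From 2 h to 24 h limma called 0 of 9 in the control line (0.454% of all genes) and 1 of 9, Bcl2l1, had an unadjusted p under 0.05.

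The log2 ratio of a death gene to a survival gene sets these courses side by side as a description, with no test. Bcl2l11 minus Bcl2 was -0.39 ± 0.14 (SD, n = 3) in the Ikaros and -0.04 ± 0.19 in the control line at 0 h, and 3.11 ± 0.43 against -0.64 ± 0.32 at 24 h. The lowest Ikaros library at 24 h was at 2.61 and the highest control library at -0.42. Bcl2l11 minus Bcl2l1 differed most between the lines at 12 h, by 2.28, and by 1.51 at 24 h, after Bcl2l1 had returned. Bcl2l11 minus Mcl1 was -2.43 ± 0.29 in the Ikaros and -3.61 ± 0.16 in the control line at 24 h. Bax minus Bcl2 differed by 1.69 at 24 h, with Ikaros libraries from 6.55 to 6.91 and control libraries from 4.95 to 5.18. Bbc3 minus Mcl1 differed by 0.02 at 24 h, and the libraries of the lines overlapped.

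**Figure D3:**
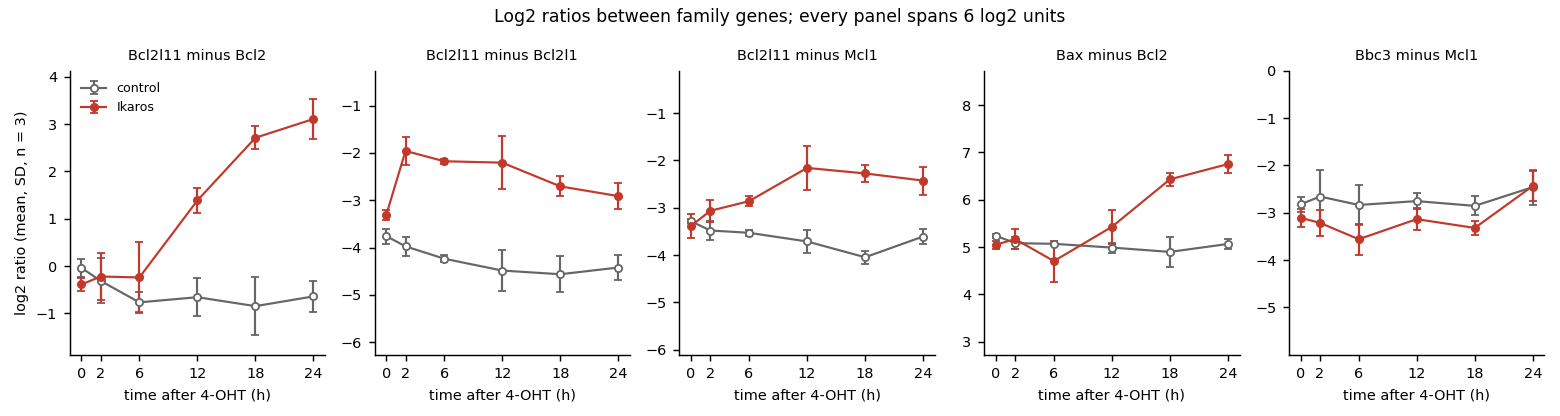
The log2 ratio between 2 family genes (mean and SD, n = 3 per group) is plotted against time in h for the control line (grey, open) and the Ikaros line (red, filled), one panel per pair and 6 log2 units in each panel. Bcl2l11 minus Bcl2 separates from 12 h and ends 3.75 apart, Bcl2l11 minus Bcl2l1 is already 2.02 apart at 2 h, and Bbc3 minus Mcl1 is 0.02 apart at 24 h.

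Levels were compared on the deposited length-corrected scale. At 0 h in the control line the order from the highest level was Bax (15.88 ± 0.14, SD), Bak1, Bcl2l1, Mcl1, Bad, Bid, Bbc3, Bcl2 (10.64 ± 0.14) and Bcl2l11 (10.60 ± 0.15), and among neighbours only Bcl2 and Bcl2l11 had overlapping libraries. At 24 h in the Ikaros line the order was Bax (15.58 ± 0.07), Bcl2l1 (14.85 ± 0.10), Bak1, Mcl1, Bad, Bcl2l11 (11.93 ± 0.22), Bbc3 (11.93 ± 0.25), Bid and Bcl2 (8.83 ± 0.21). Bak1 and Mcl1 overlapped there, as did Bcl2l11 and Bbc3. Over 36 libraries the mean of Bax was above 97.1% of genes and that of Bcl2 above 34.1%.

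Across the 36 libraries, which share lines, times and batches, some genes outside the family had courses like those of members. Highest in Pearson's r, given as a description, were Cblb (0.972) and Pou2af1 (0.971) for Bcl2l11, and Bri3bp (0.965) and Pecr (0.960) for Bcl2. For Bcl2l1 they were Pgm2l1 (0.911) and Pim1 (0.889), for Bid Hspa14 (0.896) and Ccne1 (0.881), and for Bbc3 Nfkb2 (0.832) and Filip1 (0.800). Among members in the 18 Ikaros libraries r was 0.896 for Bcl2l1 with Mcl1 and 0.841 for Bcl2 with Bid. It was -0.878 for Bcl2l1 with Bid and -0.833 for Bcl2 with Bcl2l11. In the 18 control libraries these values were 0.428, -0.431, 0.0219 and -0.696.

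Of 16 further Bcl2 family genes, 8 were found, and at 24 h 2 were higher, 3 lower and 3 not called, with a median difference of -0.10, where 62.9% of all genes were called. Bmf, a BH3-only gene, was at 9.78, 10.00 and 10.33 in Ikaros and at 4.59, 5.02 and 5.30 in control libraries at 24 h (difference 5.07 ± 0.38 SE, adjusted p = 6.71e-12), wider than any of the 9 members. At 2 h Bmf had been lower, at 3.49, 3.53 and 4.43 against 5.60, 5.94 and 5.95 (difference -2.01, adjusted p = 0.000317). Like Bbc3, Bmf was thus called lower at 2 h and higher at 24 h. Bok, an effector-like gene, fell to 5.89, 5.94 and 6.41 against 10.44, 11.12 and 11.23 (difference -4.85 ± 0.31 SE, adjusted p = 4.14e-13). None of these groups overlapped, and the low Bmf values stood near the bottom of the scale.

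Bcl2l2, the survival gene that encodes Bcl-w, also had a trough, but a later one than Bcl2l1, with its lowest Ikaros mean (9.70) at 6 h. Its Ikaros libraries were at 9.92, 10.13 and 10.26 at 2 h against 10.56, 10.75 and 11.01 in control (difference -0.67, adjusted p = 0.0128). The difference was -1.13 at 6 h (adjusted p = 3.46e-05) and -0.09 at 24 h (adjusted p = 0.706). At 12 h the Ikaros libraries were still at 9.75, 9.96 and 9.98, all below the control libraries at 10.72, 10.78 and 10.82. Bnip3, a mitophagy receptor related to the BH3-only genes, changed direction over the course. At 2 h its Ikaros libraries, from 14.42 to 14.90, lay above the control libraries, from 12.80 to 13.45. At 24 h Bnip3 was lower (difference -2.10, adjusted p = 0.000527), Bcl2l15 differed by -1.69 and Bcl2l12 by 0.65, both called.

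**Figure D4:**
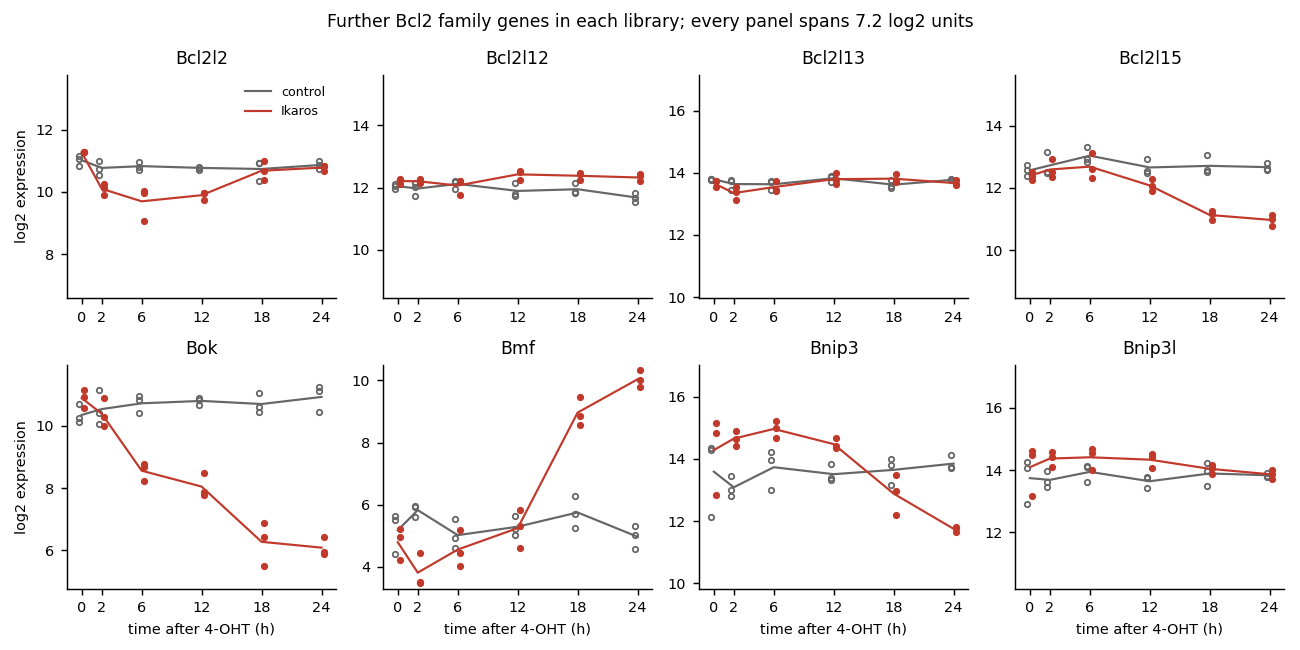
Log2 expression of 8 further Bcl2 family genes is plotted against time in h, with open grey circles for control libraries, filled red circles for Ikaros libraries and lines through the means (n = 3); every panel spans 7.2 log2 units. Bmf ends at 9.78 to 10.33 in the Ikaros libraries and Bok at 5.89 to 6.41, and Bcl2l2 has its lowest Ikaros library, 9.08, at 6 h.

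Downstream of the family, 13 genes of the apoptosome, caspases and released mitochondrial factors were examined, and at 24 h 3 were higher, 6 lower and 4 not called (median -0.09). This and the counts that follow are to be read against the 62.9% of all genes called at 24 h. Casp6, an executioner caspase, and Casp9, the initiator that joins Apaf1 in the apoptosome, were 2.45 and 2.11 higher, and Dffa, the inhibitor of the caspase-activated nuclease, 0.55 higher. Endog, Htra2 and Cycs, which encode a nuclease, a protease and cytochrome c of the intermembrane space, differed by -2.40, -1.91 and -1.58. Apaf1 (-0.06) was not called. All 6 caspase inhibitors were called, with Birc3 (1.50), Birc2 (1.17) and Xiap (0.59) higher and Cflar (-1.23), Birc6 (-1.01) and Birc5 (-0.69) lower. Of 5 found among 7 death receptor genes, Fas (2.86) and Tradd (0.49) were higher, Fadd (-0.46) lower, and Ripk1 and Tnfrsf10b were not called. Of 4 found among 5 genes of Mcl1 protein turnover, Btrc (2.25) was higher and Huwe1 (-0.89) and Usp9x (-0.35) were lower, and Fbxw7 was not called (-0.36, adjusted p = 0.0624). Of the 3 outer membrane channels, Vdac2 (-0.66) and Vdac3 (-0.40) were lower and Vdac1 (-0.19) was not called.

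**Figure D5:**
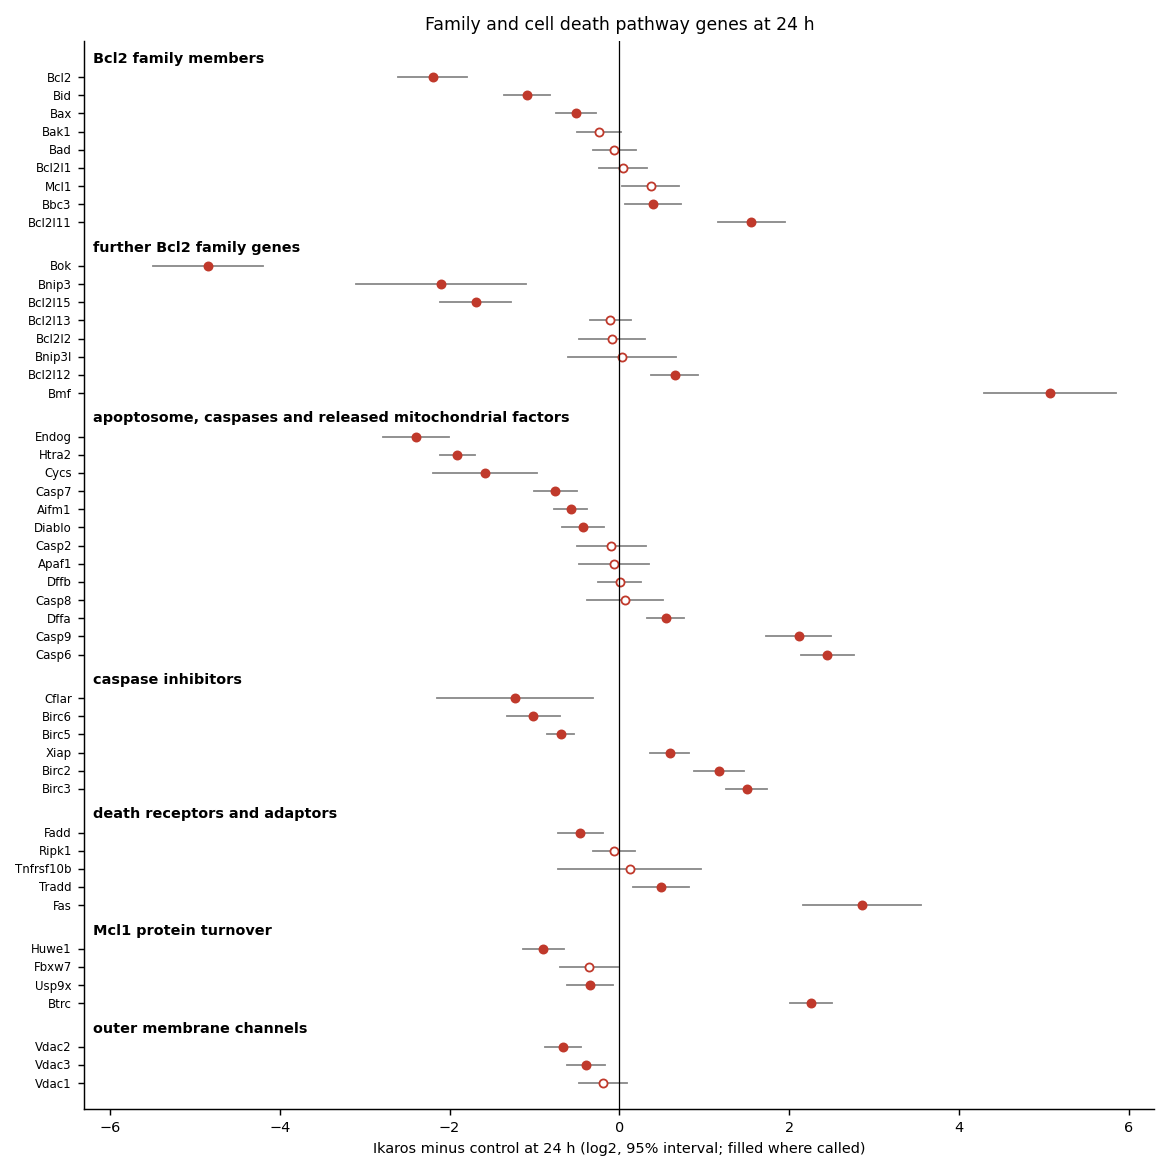
The difference between the Ikaros and control lines at 24 h is plotted in log2 units with its 95% interval for each gene reported (n = 3 per group), grouped by list; filled points passed the adjusted threshold. Bmf (5.07) and Bok (-4.85) lie farthest from 0, Casp6 and Casp9 are above 2, and the 9 members run from Bcl2 (-2.20) to Bcl2l11 (1.55).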

How the data were processed

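Strand-specific mRNA-seq of 36 libraries was analysed. The authors trimmed reads, aligned them to mm10 with TopHat2, kept unique best hits, assigned fragments to genes with HTSeq, normalised with cqn, which adjusts for length and GC, and applied non-parametric ComBat for library preparation; tool versions and the strand setting are not given in the sources used here. The deposited values are log2 expression, with the whole table shifted so that its lowest value is 1; the base is that of cqn. Depth per library is unknown from these values, so no counting interval is given.

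A linear model with 1 mean per group was fitted to all 12762 genes with limma 3.58.1 (R 4.3.3), with Benjamini-Hochberg adjustment over all genes and a threshold of 0.05; differences are Ikaros minus control, tests are two-sided, and SE and intervals come from this fit. No low-value filter was used in the main fit, and all 9 members were tested. The fit was tested on simulated data, drawn as independent normal values with no batch effect, unlike the real libraries. Of 200 genes given a log2 change of 1 in the Ikaros line at 24 h, 137 were called at 24 h, with 8 unchanged genes. The F test called 96 of the 200, with 4 unchanged genes, so changes of this size can be missed. Replicates are labelled by batch (1, 2 and 4 at 0 h, and 1, 3 and 4 later). The methods of the study describe batches as repeats of the time course with the same lines, and the 0 h cells as collected separately. The main fit had no batch term, so its p-values rest on the spread between libraries within groups, pooled over the 12 groups. This spread is of values already adjusted by ComBat, and it is not the spread of a line difference between runs. The batch numbers come from the labels and pair the libraries; same-batch deviations of the lines correlated with a median r of 0.127 (18 pairs, -0.0620 to 0.507, 12 over 0.1). Alternatives were the batch as a replicate block, a filter at the 25th percentile, quantile normalization, median centring, trend and robust eBayes, a fit of only the groups compared, and leaving out each replicate.

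Members, gene lists and naming rules were chosen with earlier results of these data known. All members were named; from each other list up to 3 called rises and 3 called falls at 24 h with non-overlapping replicates were named, small lists of up to 7 genes whole, and for likeness the genes with the highest r. Apaf1, Bcl2l2 and the other genes outside this rule were named after their values were seen. From the list of the apoptosome and caspases, 1 gene is not reported here. Positions are from GENCODE M21 (GRCm38) and promoters from RefSeq (GRCm38.p6), with all 9 members matched in both; proteins are not shown here.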

Additional observations from a re-analysis of the deposited data

Results flagged for a closer look

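These results stood out because the difference between the lines was not the same at 2 times, by the limma test of the change itself over all genes; all 21 are called changes of the Ikaros minus control difference, in log2 units, and contrasts that share the 0 h or 24 h libraries are not independent. Against 0 h, Bcl2l1 had changed by -1.50 at 2 h (3.1% of all genes called at that contrast) and by -0.95 at 6 h (15.9%), where Bid had changed by 1.01. At 12 h (29.7%) Bcl2 had changed by -0.93 and Bcl2l11 by 1.47. At 18 h (43%) the values were -2.05 for Bcl2, 1.86 for Bcl2l11 and -0.68 for Bid. At 24 h (48.4%) they were -2.55 for Bcl2, 1.56 for Bcl2l11, -0.76 for Bid, -0.67 for Bax, 0.59 for Bbc3 and 0.49 for Bcl2l1. Without replicate 2 the 6 h change of Bcl2l1 lost its call (adjusted p = 0.0876), and without replicate 1 or replicate 2 so did the 12 h change of Bcl2 (0.187 and 0.150) and the 18 h change of Bid (0.0930 and 0.108). Without replicate 1 or replicate 2 the 24 h changes of Bcl2l1 and Bbc3 lost their calls, and that of Bid did so without replicate 2 (adjusted p = 0.0667).

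Between 2 h and 24 h, with no 0 h library, the changes were -2.17 for Bcl2, 1.99 for Bcl2l1, 1.48 for Bcl2l11, 1.30 for Bbc3, -1.24 for Bid, 0.72 for Mcl1 and -0.57 for Bax. The Mcl1 call was lost without replicate 2 (adjusted p = 0.146) or with only the groups compared (adjusted p = 0.0751), and the Bax call without replicate 1 (adjusted p = 0.0671).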

How the results depend on the processing

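Of 1239 values recomputed for 141 results, 1129 kept their direction and side of the threshold (for counts, within 1.5 times), 68 lost a call, 9 gained one, 14 reversed and 19 moved. The Ikaros minus control calls of Bcl2 at 18 and 24 h, Bcl2l1 at 2, 6 and 12 h, Bcl2l11 at 12, 18 and 24 h, Bid at 6, 18 and 24 h, Bbc3 at 2 and 6 h and Bax at 24 h held under all 9 alternatives. The replicate block changed no Ikaros minus control call beyond those of Mcl1 at 2 and 24 h, Bax at 6 h and Bbc3 at 18 h, and otherwise only the F test of Mcl1. Leaving out a replicate, family genes called numbered 0 to 0 at 0 h and 2 to 5 at 12 h; for changes from 0 h, 1 to 2 at 6 h, 1 to 3 at 12 h and 3 to 6 at 24 h; and for Ikaros line steps, 1 to 2 from 0 to 2 h, 0 to 1 from 2 to 6 h, 3 to 4 from 6 to 12 h and 0 to 1 from 18 to 24 h. With only the groups compared, the first 3 of those steps gave 1, 0 and 0. The 24 h ratio differences ranged from 1.55 to 1.85 for Bax minus Bcl2 and from -0.23 to 0.29 for Bbc3 minus Mcl1. Uncalled differences that changed sign on leaving out a replicate ranged from -0.031 to 0.16 (Mcl1, 0 h), -0.038 to 0.024 (Bcl2l11, 0 h), -0.00094 to 0.072 (Bad, 0 h), -0.029 to 0.11 (Bax, 2 h), -0.10 to 0.26 (Bcl2, 6 h), -0.056 to 0.027 (Mcl1, 6 h; 0.0014 with median centring), -0.16 to 0.13 (Bcl2l1, 18 h), -0.18 to 0.10 (Bad, 18 h) and -0.10 to 0.16 (Bcl2l1, 24 h). Fewer samples and residual degrees of freedom go with both kinds of reduced fit, and the cause of single changes was not tested. Unknown depth limits what can be said of low values such as Bmf in the control line.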
